A study of Homo sapiens with 12 samples.

Results

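Potassium and calcium channel subunits were taken as every protein-coding gene whose symbol begins with KCN or CACN. The files listed 121 of them among 57820 genes, 95 with KCN symbols and 26 with CACN symbols. They were followed in 12 RNA libraries of PLC/PRF/5, a hepatoma cell line with epithelial cells of human origin. The 4 control libraries are wild type. Cells in which HKDC1, a hexokinase domain gene, was knocked out gave 2 lines, called line 1 (titles with KO1) and line 2 (KO2). Each line has 2 knockout libraries and 2 in which HKDC1 was put back (KO_RES in the titles, called rescue), and libraries of a line carry the number 1 or 2. The series title names hypoxia, but the labels do not give the oxygen level, the vector of the rescue, or whether a line is 1 clone. Nor do they say that libraries came from separate cultures, so each p-value reflects only how far these libraries scatter, and that scatter may be technical. What is particular to a line and what follows from its knockout cannot be told apart within that line. For 4 libraries (knockout number 2 and rescue number 1 of each line) the genotype field gives the other state than the title, and the titles were followed.

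Potassium channels let potassium leave or enter a cell and so set its resting voltage. They include voltage-gated pores, pores that rectify inward, pores with a pair of domains that leak at rest, and pores opened by calcium. Voltage-gated calcium channels are built from a CACNA1 pore, a CACNB subunit inside the cell and a CACNA2D subunit outside it that helps carry the pore to the surface, with CACNG subunits in some. In liver cells potassium channels are known for their part in volume control and bile formation, while calcium signals run mainly through release from stores and store-operated entry rather than voltage-gated pores.

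Library totals ran from 36075411 to 71853616 counts assigned to genes, and 3 counts were worth 0.0408 to 0.0848 CPM (counts per 1000000, scaled by TMM, which corrects for the makeup of each library). HKDC1 stood at 157, 157, 183 and 124 CPM in the controls, 152 and 147 in the line 1 knockout and 90.5 and 49.3 in the line 2 knockout, so that the line 1 libraries labelled knockout lay within the control range. Knockout below means the libraries labelled so. It stood at 1250 and 1540 CPM in the line 1 rescue and 509 and 609 CPM in the line 2 rescue. The controls were not alike: ALB (albumin) had 907, 836, 23.0 and 28.4 CPM in controls 1 to 4, so results are also given against each pair. All 12 hepatocyte or hepatoma markers examined were expressed, while 0 of 8 muscle markers were. Of 8 neuron markers, 4 were expressed (SNAP25, SYT1, MAP2 and SYP).

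A channel gene was called expressed where its mean was 1 or more CPM in the controls, in line 1 or in line 2. By that rule 39 of the 121 were expressed, 28 with KCN and 11 with CACN symbols, which is 32.2% of the channel genes beside 25.3% of all genes listed. The latter share is over genes of every type, while the channel genes are all protein-coding, so these shares are not like for like. The controls expressed 29, line 1 expressed 25 and line 2 expressed 36, and 20 were expressed in all of these. CACNA2D2 at 1.12 CPM and KCNN3 at 1.11 CPM, both in line 2, lay just inside the level. KCNMB3 at 0.792 CPM in the controls and KCNH4 at 0.765 CPM in line 1 lay just outside. Of the 82 genes below the level, 9 had no read in any library. KCNMA1, the large-conductance calcium-activated pore, had 11 reads in all 12 libraries together. KCNQ1 and KCNN4, potassium pores known from epithelia, reached group means of at most 0.207 and 0.394 CPM.

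CACNA1H, the pore of a T-type calcium channel that opens near resting voltage, was the most abundant channel RNA per length, at 14.8 CPM per kilobase of exon in the controls, 7.96 in line 1 and 6.8 in line 2. CACNA2D1 and CACNG6 had control means of 3.54 and 3.52 CPM per kilobase, the silent subunit KCNF1 had 3.89, and CACNB2 had 3.28. By class, 4 of 10 CACNA1 pores, 2 of 4 CACNA2D, 3 of 4 CACNB and 2 of 8 CACNG genes were expressed. Among potassium channels the counts were 5 of 22 voltage-gated pores, 4 of 15 inward rectifiers, 4 of 15 pores with a pair of domains, 4 of 8 EAG, ERG and ELK pores and 3 of 10 silent subunits. Accessory subunits gave 5 of 17, and calcium- or sodium-activated pores 3 of 8. Summed over the expressed CACN genes the level was 189 to 267 CPM in the controls, 86.2 to 107 in line 1 and 104 to 142 in line 2. The expressed KCN genes summed to 72.7 to 95.9 CPM in the controls, 65.1 to 96.3 in line 1 and 94.1 to 139 in line 2. Ranges of the CACN sum in either line therefore lay below the controls, while the KCN sums of both lines overlapped them. CACNA1H alone averaged 128 CPM in the controls, 68.5 in line 1 and 58.6 in line 2.

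**Figure D1:**
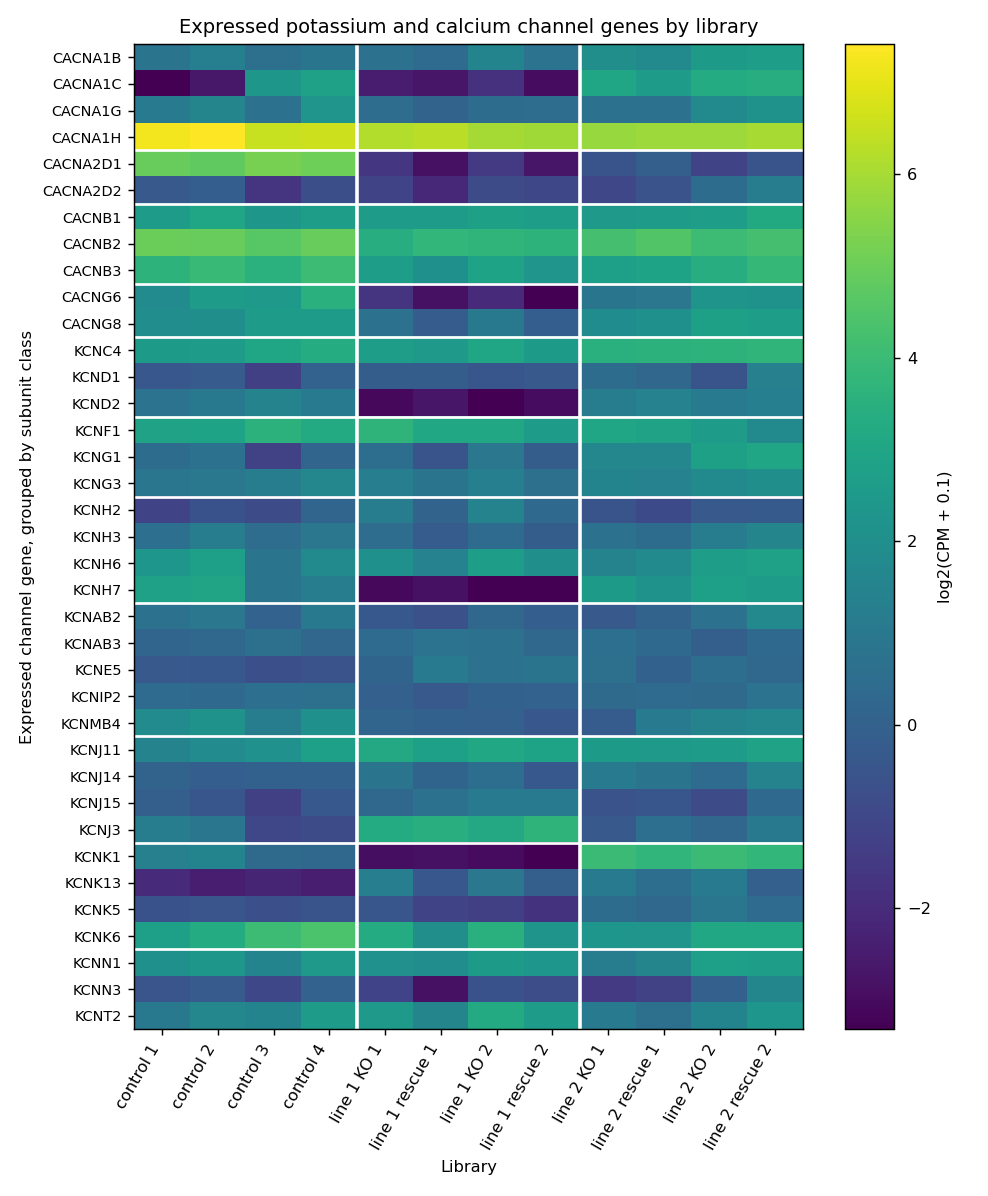
Level of the expressed channel genes reported here (rows, grouped by subunit class) in each of the 12 libraries (columns), coloured by log2(CPM + 0.1). CACNA1H is bright throughout, at 53.5 to 171 CPM, while CACNA2D1 is bright in the controls only and KCND2, KCNH7 and KCNK1 are dark in all libraries of line 1.

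Altogether 4 expressed genes separated the control pairs, taken as both libraries of a pair being at least 2 times both of the other. This is a description, since the pairs are not labelled groups. Controls 3 and 4 were the higher pair for CACNA1C alone, the pore of an L-type calcium channel best known from heart and smooth muscle, or 2.56% of the 39 beside 3.62% of all expressed genes. CACNA1C had 0 and 0.0594 CPM in controls 1 and 2 and 5.07 and 6.90 CPM in controls 3 and 4. These values rest on 4 counts against 687, a ratio of 184 with a 95% exact counting interval of 71.4 to 676, which covers counting error only. In line 1 it had 0.0795, 0.0591, 0.187 and 0.0283 CPM in knockout 1, rescue 1, knockout 2 and rescue 2 (the order used for every line below), and in line 2 it had 8.12, 6.05, 9.59 and 10.1 CPM. Controls 1 and 2 thus lay with line 1, and controls 3 and 4 were nearer to line 2.

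Controls 1 and 2 were the higher pair for KCNH7, KCNJ3 and KCNK1, or 7.69% of the expressed channel genes beside 3.26% of all. KCNH7 encodes an ERG-type voltage-gated potassium pore. Its control values were 7.04, 7.72, 1.66 and 2.19 CPM. KCNJ3 encodes a G-protein-gated inward rectifier and had 2.22, 1.77, 0.389 and 0.464 CPM. KCNK1 encodes a leak pore with a pair of pore domains (TWIK-1) and had 2.49, 2.75, 1.20 and 1.12 CPM. The remaining expressed channel genes met this rule in neither direction.

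For the line comparisons the knockout and rescue libraries of a line were pooled and set against the 4 controls, by edgeR's quasi-likelihood test with Benjamini-Hochberg adjustment over the 20559 genes that passed a filter on low counts, called at an adjusted p under 0.05. Of the 121 channel genes 67 passed that filter, among them all 39 expressed ones. Line 1 held 12 expressed channel genes lower than the controls (30.8% of 39, beside 15.7% of all genes tested) and 6 higher (15.4%, beside 11.3%). The 12 included 7 calcium channel genes, and no expressed calcium channel gene was called higher. All genes tested include genes below 1 CPM, so the like share is over the 67 channel genes tested. Of these 67, 18 were lower (26.9%) and 7 higher (10.4%). The median log2 fold change was -0.23 over the expressed channel genes and -0.02 over all genes tested. Because these are bulk samples, fewer cells with an RNA and less of it per cell cannot be told apart.

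CACNA2D1, whose product is the alpha2delta-1 subunit bound by gabapentin, was the clearest of these. It stood at 29.9, 27.5, 37.2 and 33.0 CPM in the controls. The line 1 libraries had 0.223, 0.0394, 0.258 and 0.0565 CPM and the line 2 libraries 0.601, 0.865, 0.354 and 0.589 CPM. Every library of either line lay far below every control, and line 1 lay below line 2. Over pooled counts the controls were 210 times line 1 (95% exact counting interval 146 to 314) and 54.7 times line 2 (46.4 to 64.8). The adjusted p by edgeR was 3.96e-08 for line 1 and 1.65e-07 for line 2.

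CACNA1H fell in both lines. Its control values were 152, 171, 90.6 and 97.8 CPM, so controls 3 and 4 were the lower pair. Values of 73.1, 80.1, 62.2 and 58.7 CPM were found in line 1 and of 53.5, 57.4, 58.1 and 65.2 CPM in line 2. No library of a line reached the lowest control. The log2 fold change was -0.89 (SE 0.20, edgeR adjusted p = 0.00836) in line 1 and -1.11 (SE 0.20, adjusted p = 0.00432) in line 2. Against controls 3 and 4 alone it was -0.44 and -0.68, and both calls held.

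CACNB2 and CACNB3 encode beta subunits, which sit under the pore and favour its opening and surface level. CACNB2 had 31.7, 30.4, 25 and 30.4 CPM in the controls, 10.1, 13.9, 12.8 and 12.3 CPM in line 1, and 19.2, 22.4, 16.5 and 18.9 CPM in line 2. The 3 groups did not overlap, with line 2 in between. Its log2 fold change was -1.26 (SE 0.12, edgeR adjusted p = 6.26e-05) in line 1 and -0.60 (SE 0.12, adjusted p = 0.00712) in line 2, where the call was lost without the pair of line 2 libraries numbered 2 (-0.50, adjusted p = 0.0651). CACNB3 was at 11.6 to 16.6 CPM in the controls and 4.10 to 7.49 CPM in line 1 (log2 fold change -1.32, edgeR adjusted p = 0.00206), while line 2 spanned 6.65 to 14.2 CPM and was not called (-0.51, adjusted p = 0.147). CACNB1, another beta subunit, was at 6.29 CPM in the controls, 6.17 in line 1 and 6.68 in line 2 on average, with no call.

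CACNG6 and CACNG8 encode gamma subunits and are next to each other on chromosome 19 (GENCODE 29 order). CACNG6 had 3.53, 5.92, 5.34 and 11.3 CPM in the controls. Line 1 had 0.207, 0.0394, 0.141 and 0 CPM, or 21 counts in all, and line 2 had 1.68, 1.84, 4.62 and 4.52 CPM. Line 1 thus lay below all other libraries, while line 2 overlapped the controls. The controls were 59.2 times line 1 (95% exact counting interval 38.6 to 95.9, edgeR adjusted p = 7.66e-05), and line 2 was not called (log2 fold change -1.02, adjusted p = 0.152). CACNG8 was at 3.78 to 5.87 CPM in the controls and 0.768 to 1.94 CPM in line 1 (log2 fold change -2.04, edgeR adjusted p = 0.000432), with line 2 at 3.62 to 6.76 CPM. CACNA1C was also called lower in line 1, at an edgeR adjusted p of 0.0307. That call rests on controls 3 and 4: against controls 1 and 2 alone the log2 fold change turned to 1.19 (adjusted p = 0.364), against controls 3 and 4 it was -6.23 (adjusted p = 4.24e-06), and leaving out any 1 of 6 libraries (control 3, control 4 or any of line 1) ended the call, with adjusted p up to 0.112, as did using knockout libraries only (adjusted p = 0.136) and leaving out the pair of line 2 libraries numbered 2 (adjusted p = 0.0591).

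**Figure D2:**
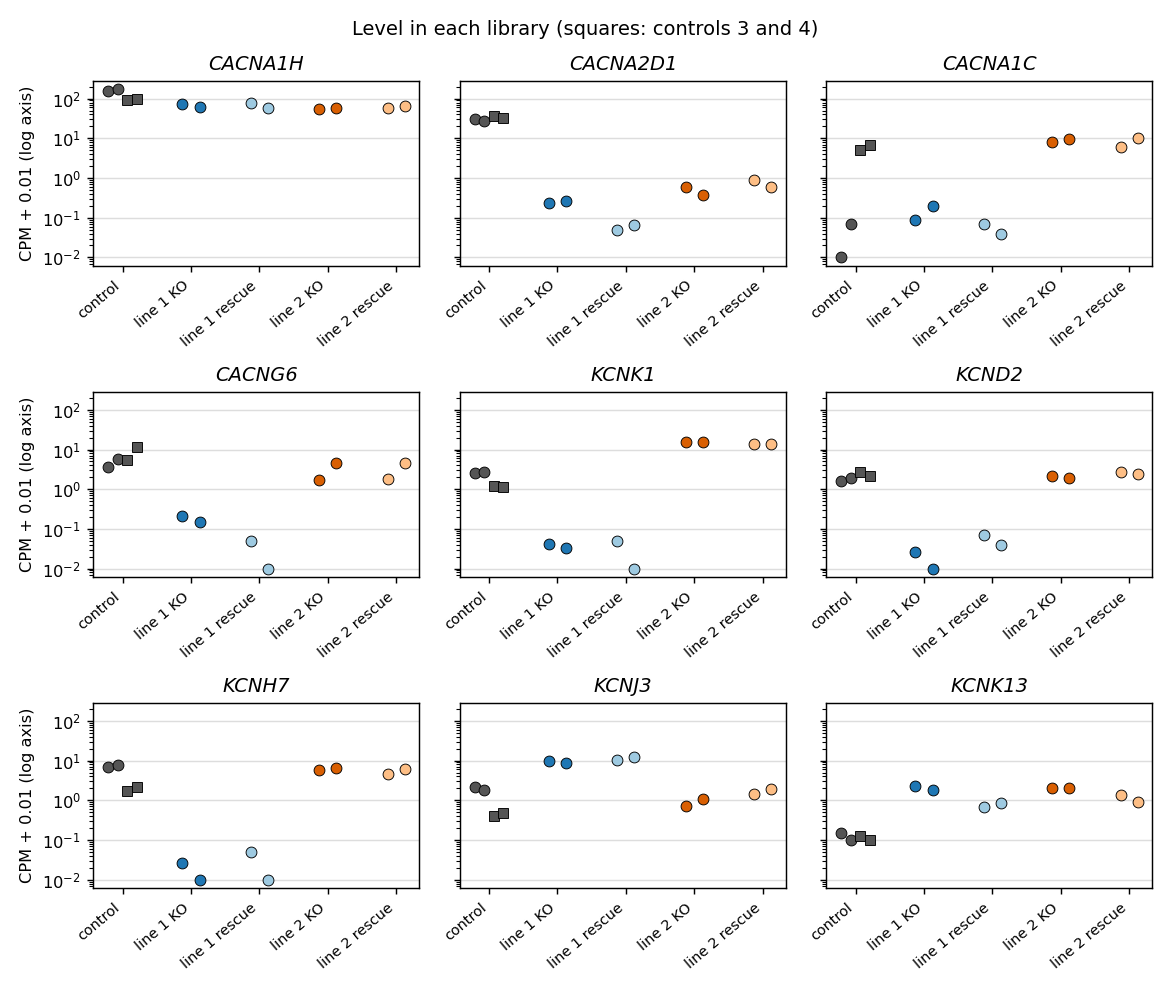
CPM plus 0.01 on a log axis in each library for 9 channel genes, with 1 point per library, squares for controls 3 and 4, and columns for the controls and for knockout and rescue of each line. CACNA2D1 falls from 27.5 to 37.2 CPM in the controls to below 1 CPM in both lines, KCNK13 lies below 0.2 CPM in the controls only, and KCNK1, KCND2 and KCNH7 lie below 0.1 CPM in line 1 only.

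Line 1 also had 5 expressed potassium channel genes lower than the controls, and 3 of them were close to absent. KCNK1 had 0.0318, 0.0394, 0.0234 and 0 CPM in line 1, which is 5 counts in 4 libraries. KCND2, the pore of a fast A-type current, had 0.0159, 0.0591, 0 and 0.0283 CPM there, also 5 counts, after 1.58, 1.94, 2.71 and 2.10 CPM in the controls. KCNH7 had 0.0159, 0.0394, 0 and 0 CPM, or 3 counts. All line 1 libraries lay below all controls for the 3 genes. By pooled counts the controls exceeded line 1 by 73.7 times for KCNK1 (95% exact counting interval 31.3 to 228), 79.9 times for KCND2 (34 to 247) and 304 times for KCNH7 (104 to 1480). The edgeR adjusted p was 2.17e-05, 2.46e-06 and 7.8e-05 in that order. KCNMB4, an accessory subunit of the BK channel, fell from 2.16 to 4.45 CPM to 0.65 to 1.05 CPM (log2 fold change -2.03, edgeR adjusted p = 0.00332). KCNIP2, which binds Kv4 pores such as that of KCND2, was called at -0.61 (adjusted p = 0.0409), and leaving out any 1 of 10 libraries (all but rescue 1 and rescue 2 of line 2) ended that call, as did using either control pair alone (adjusted p = 0.151 and 0.0583).

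The upstream sequences of 4 genes nearly lost in line 1 are shown because line 1 had so few reads from each: KCNK1, KCND2, CACNG6 and CACNA2D1. KCNH7 is named only. Each run is the 250 bases before the RefSeq start on the strand of the gene (GRCh38.p14), at chr1:233613856-233614105 (+) for KCNK1, chr7:120272925-120273174 (+) for KCND2, chr19:53991387-53991636 (+) for CACNG6 and chr7:82443957-82444206 (-) for CACNA2D1. The bases just after this start were found in a GENCODE 29 transcript for KCNK1 and not for the other 3. Capitals mark matches on either strand to the core of the hypoxia response element, ACGTG, or to a TATA box, searched as TATAAA.
KCNK1: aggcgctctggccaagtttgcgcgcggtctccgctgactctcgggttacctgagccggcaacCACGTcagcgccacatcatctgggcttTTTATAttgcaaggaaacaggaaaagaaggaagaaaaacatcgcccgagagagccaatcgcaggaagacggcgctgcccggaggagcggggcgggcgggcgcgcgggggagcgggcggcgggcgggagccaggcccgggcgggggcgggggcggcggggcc
KCND2: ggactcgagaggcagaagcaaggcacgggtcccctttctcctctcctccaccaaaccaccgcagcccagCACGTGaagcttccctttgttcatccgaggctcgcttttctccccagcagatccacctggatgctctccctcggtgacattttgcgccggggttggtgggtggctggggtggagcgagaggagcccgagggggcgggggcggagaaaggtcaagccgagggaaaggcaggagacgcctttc
CACNG6: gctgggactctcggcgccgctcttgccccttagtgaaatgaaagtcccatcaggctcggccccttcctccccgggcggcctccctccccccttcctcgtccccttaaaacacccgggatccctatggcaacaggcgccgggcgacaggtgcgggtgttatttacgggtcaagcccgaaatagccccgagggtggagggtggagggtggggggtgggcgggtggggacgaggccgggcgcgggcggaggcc
CACNA2D1: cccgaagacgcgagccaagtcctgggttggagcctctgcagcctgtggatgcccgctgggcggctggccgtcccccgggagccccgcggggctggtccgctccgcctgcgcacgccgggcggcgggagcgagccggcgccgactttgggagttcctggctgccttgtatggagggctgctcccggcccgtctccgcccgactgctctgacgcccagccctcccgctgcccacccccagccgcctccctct
The KCNK1 window holds a match to the hypoxia core and a match to TATAAA, both on the reverse strand. In the KCND2 window the hypoxia core reads on both strands of 1 site. These are matches of letters at any place in the window, and their use was not tested. The core bound by TCF/LEF factors, CTTTGA, was also searched. The CACNG6 and CACNA2D1 windows held none of these motifs. Over 14988 coding promoters of the same length the hypoxia core was found in 20.5%, TATAAA in 9.25% and the TCF/LEF core in 9.48%. CG dinucleotides numbered 30 in KCNK1, 15 in KCND2, 21 in CACNG6 and 27 in CACNA2D1, beside a median of 17 over those promoters and of 23 over the 28 expressed channel genes with an entry.

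Some of the genes beside these moved as well. SLC35F3, next to KCNK1, had group means of 0.69 CPM in the controls, 0.0199 in line 1 and 2.51 in line 2 (edgeR adjusted p = 0.00209 and 0.0417 for line 1 and line 2). MAP3K21 on the other side of KCNK1 was at 30.6, 30.7 and 58.7 CPM, higher in line 2 only by these tests (log2 fold change 0.96, edgeR adjusted p = 7.59e-05). HGF, hepatocyte growth factor, lies next to CACNA2D1 and had 5.67, 0.0417 and 0.2 CPM (edgeR adjusted p = 0.0123 and 0.0396). PCLO on the other side was at 14.6, 15.9 and 26.6 CPM with neither line called. DCP1B, next to CACNA1C, was at 4.38, 0.972 and 6.13 CPM and fell in line 1 (-2.61, edgeR adjusted p = 0.000137). TSPAN12 and ANKRD7, on either side of KCND2, were not called in line 1 (-0.29, edgeR adjusted p = 0.18, and -0.50, adjusted p = 0.377) and fell in line 2 (-0.59, adjusted p = 0.0215, and -1.44, adjusted p = 0.0304), where KCND2 was not called. FIGN, next to KCNH7, was called in neither line (line 1 -0.20, adjusted p = 0.602). GCA on the other side of KCNH7 fell in line 1 (-0.88, adjusted p = 0.00353).

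Of the 6 channel genes that rose in line 1, 3 were inward rectifiers, out of 4 expressed. KCNJ3 had 9.78, 10.4, 8.76 and 12.7 CPM in line 1, above every control, and 0.692, 1.43, 1.07 and 1.94 CPM in line 2, within the control range. Its log2 fold change in line 1 was 3.10 (SE 0.51, edgeR adjusted p = 0.00153). KCNJ15 was at 1.13 to 2.08 CPM in line 1 after 0.304 to 0.841 in the controls (1.47, edgeR adjusted p = 0.0108). KCNJ11, the pore of the ATP-sensitive potassium channel Kir6.2, was at 6.54 to 8.88 CPM after 2.70 to 6.56 CPM (0.88, adjusted p = 0.0229). For KCNJ11 the call was lost against controls 3 and 4 alone (0.55, adjusted p = 0.0956) and on leaving out control 2, either line 1 knockout or line 1 rescue 2 (adjusted p up to 0.0711). KCNH2, the hERG pore, was called at 1.42 (adjusted p = 0.0105), with 2.20 and 2.69 CPM in the line 1 knockouts and 0.985 and 1.16 CPM in the rescues, so the rescues overlapped control 4 at 1.05 CPM, and the call was lost against controls 3 and 4 alone (1.11, adjusted p = 0.0617).

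KCNK13 and KCNE5 rose in both lines. KCNK13 encodes THIK-1, a leak pore with a pair of pore domains that is known from microglia. It had 0.143, 0.0891, 0.118 and 0.0892 CPM in the controls, 2.31, 0.65, 1.83 and 0.848 CPM in line 1, and 2.08, 1.37, 2.07 and 0.876 CPM in line 2. The lines did not overlap the controls. Log2 fold changes were 3.48 (SE 0.28, edgeR adjusted p = 1.61e-05) in line 1 and 3.79 (SE 0.27, adjusted p = 1.83e-05) in line 2. KCNE5, a small accessory subunit, was at 0.507 to 0.698 CPM in the controls, 1 to 2.07 in line 1 and 0.902 to 1.46 in line 2 (1.31, adjusted p = 0.00164, and 0.99, adjusted p = 0.0117, by edgeR). In line 2 the KCNE5 call was lost against controls 1 and 2 alone (0.80, adjusted p = 0.0581).

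Line 2 had 10 expressed channel genes higher than the controls (25.6% of 39, beside 7.7% of all genes tested) and 3 lower (7.69%, beside 9.61%). The 3 were CACNA1H, CACNA2D1 and CACNB2. The median log2 fold change was 0.17 over the expressed channel genes and 0.00 over all genes tested. Counting all 67 tested, the like set for all genes tested, 13 were higher (19.4%) and 7 lower (10.4%). Without the pair of line 2 libraries numbered 2 the 13 became 4.

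KCNK1, nearly absent from line 1, rose in line 2. Line 2 had 15.7, 13.5, 15.7 and 13.6 CPM, and its log2 fold change against the controls was 2.96 (SE 0.32, edgeR adjusted p = 0.000245). At 4.03 CPM per kilobase it was second only to CACNA1H among channel genes in that line. KCNK5, a leak pore sensitive to alkaline pH, was at 1.13 to 1.74 CPM after 0.507 to 0.609 CPM (1.27, edgeR adjusted p = 0.00945). KCNG1, a silent subunit that opens no pore on its own, was at 3.02 and 3.05 CPM in the line 2 libraries numbered 1 and 6.87 and 8.17 in those numbered 2, after 0.321 to 1.5 CPM in the controls (2.37, adjusted p = 0.00755). CACNA1B, the N-type calcium channel pore, was at 3.42 to 6.16 CPM after 1.47 to 2.40 (1.42, edgeR adjusted p = 0.00705). KCNC4, a fast voltage-gated pore (0.72, adjusted p = 0.0224), and KCNJ14, an inward rectifier (1.08, adjusted p = 0.0145), were also higher. Without the pair of line 2 libraries numbered 2 the calls for CACNA1B (adjusted p = 0.0686), KCNC4 (0.125), KCNE5 (0.0648), KCNG1 (0.0736) and KCNK5 (0.0676) were lost, each in the same direction. KCNC4 and KCNJ14 were also lost against controls 3 and 4 alone (adjusted p = 0.098 and 0.0609) and on leaving out single libraries: any of control 1, control 2, knockout 1, knockout 2 and rescue 2 of line 2 for KCNC4, and knockout 1 of line 2 for KCNJ14. With knockout libraries only, KCNC4 and KCNJ14 were not called (edgeR adjusted p = 0.079 and 0.0926).

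**Figure D3:**
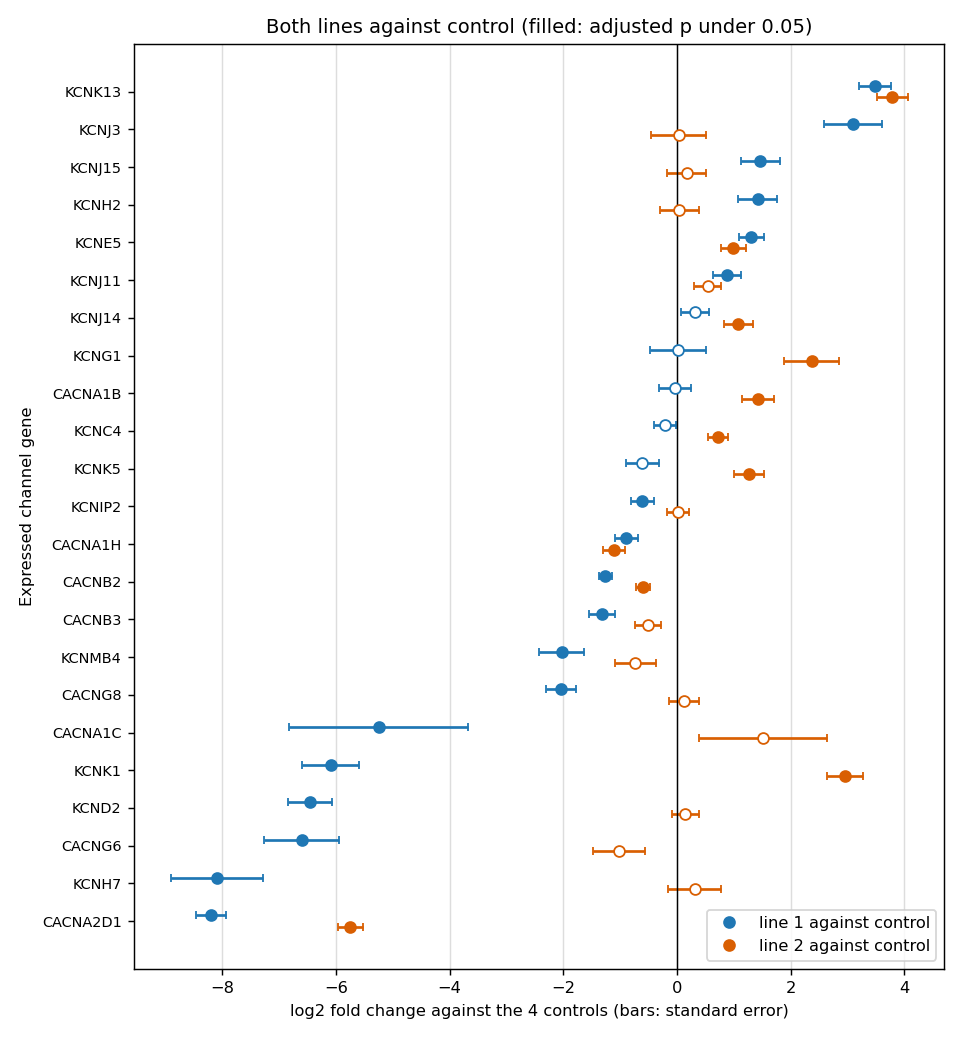
Log2 fold change of line 1 (blue) and of line 2 (orange) against the same 4 controls for the expressed channel genes reported here that were called in either, with bars for the standard error and filled points for an adjusted p under 0.05. CACNA2D1 lies far left in both lines and KCNK13 far right in both (3.48 and 3.79), while KCNK1 lies on opposite sides. For the 5 genes lowest in line 1 the pooled line 1 counts were 3 to 29.

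Since both lines share the control libraries, they were also set against each other directly. Line 2 was higher than line 1 for 20 of the 39 expressed channel genes (51.3%, beside 14.6% of all genes tested) and lower for 3 (7.69%, beside 12.3%). The median log2 difference was 0.83 over the expressed channel genes and 0.04 over all genes. Over the 67 tested, the like set for all genes tested, 23 were higher (34.3%) and 4 lower (5.97%). The count of 23 fell to 13 without the pair of line 2 libraries numbered 2 and to 8 with knockout libraries only. KCNK1 differed most surely: line 2 was 562 times line 1 by pooled counts (95% exact counting interval 240 to 1730, edgeR adjusted p = 1.57e-06). KCND2 differed by 87.1 times (37.1 to 269, adjusted p = 2.01e-06) and KCNH7 by 371 times (127 to 1800, adjusted p = 4.71e-05). KCND2 in line 2 had 2.20, 2.63, 1.96 and 2.38 CPM and KCNH7 had 5.66, 4.49, 6.58 and 6.08 CPM, all within their control ranges.

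Calcium channel genes made up 7 of the 20. CACNG6 was 30.7 times higher in line 2 (20 to 49.9, edgeR adjusted p = 0.000162) and CACNA1C 97.8 times (60.9 to 168, adjusted p = 0.0103), though for CACNA1C leaving out line 1 knockout 1, rescue 1 or rescue 2 ended the call (adjusted p up to 0.0589). CACNG8 differed by 2.16 on the log2 scale (adjusted p = 0.000258), CACNA2D1 by 2.44 (adjusted p = 0.000133), CACNA1B by 1.46 (adjusted p = 0.00376) and CACNB2 by 0.66 (adjusted p = 0.00259). CACNB3 was called at 0.81 (adjusted p = 0.0244) and was lost without the libraries numbered 2 of line 2 (0.35, adjusted p = 0.234). With knockout libraries only, CACNA1B (adjusted p = 0.0905), CACNA1C (adjusted p = 0.0915) and CACNA2D1 (0.98 on the log2 scale, adjusted p = 0.082) were not called by edgeR. The 3 genes lower in line 2 were KCNJ3 (-3.06, edgeR adjusted p = 0.00151), KCNH2 (-1.39, adjusted p = 0.0117) and KCNJ15 (-1.30, adjusted p = 0.0185).

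Potassium channel genes higher in line 2 than in line 1 also included KCNK5 (1.88 on the log2 scale, edgeR adjusted p = 0.000789), KCNC4 (0.93), KCNG1 (2.35), KCNMB4 (1.30), KCNG3 (0.76), KCNH3 (1.0), KCNIP2 (0.63) and KCNJ14 (0.75). KCNG3 is a silent subunit and KCNH3 an ELK-type pore. The calls for KCNG1, KCNG3, KCNH3, KCNIP2, KCNJ14, KCNJ15 and KCNMB4 were lost without the pair of line 2 libraries numbered 2. With knockout libraries only, KCNC4 (adjusted p = 0.107), KCNG1 (0.143), KCNG3 (0.472), KCNH3 (0.445), KCNIP2 (0.356), KCNJ14 (0.865), KCNJ15 (0.0567) and KCNMB4 (0.349) were not called by edgeR. KCNJ14 was also lost with the library number as a block beside the state (0.71 on the log2 scale, adjusted p = 0.108). Leaving out 1 library ended the calls for CACNB3, KCNG3, KCNH3, KCNIP2, KCNJ14, KCNJ15 and KCNMB4, with adjusted p up to 0.158.

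Markers of other cell types moved with the lines too. The summed endocrine markers stood at 9.79 to 16.1 CPM in the controls, 0.904 to 2.47 in line 1 and 8.82 to 9.98 in line 2, with 3 of 6 expressed, and INS and SST at or under 3 counts in every library. CHGB averaged 12.5, 0.38 and 2.94 CPM in controls, line 1 and line 2, while CHGA averaged 0.872, 0.77 and 3.12 CPM and PCSK1 0.617, 0.506 and 3.27 CPM, so the like sums of controls and line 2 hold opposite differences. The neuron markers summed to 78.1 to 91.7, 93.6 to 108 and 94.9 to 135 CPM, and the hepatocyte markers to 12300 to 22900, 17100 to 34700 and 4250 to 5590 CPM. In line 1 most of that last sum was APOB, at 5930, 18300 and 54.7 CPM on average. KRT8 and KRT18 were the largest in line 2, at 1680 and 1520 CPM. FGB averaged 3790, 561 and 135 CPM, APOA1 115, 5.26 and 7.12 CPM and TTR 18.0, 0.073 and 0.669 CPM. Those control averages hide the pairs. In controls 1 to 4 FGB had 6170, 5970, 1640 and 1380 CPM and APOA1 223, 215, 10.3 and 10.5 CPM. TTR had 34.1, 33.5, 2.74 and 1.6 CPM there. On average AFP stood at 27.4, 30.3 and 28.6 CPM and KRT18 at 1810, 1920 and 1520 CPM. Fibroblast markers, with 4 of 7 expressed, summed to 6.81 to 12.1, 4.43 to 5.91 and 9.19 to 12.3 CPM, below all controls in line 1, with COL3A1 at 2.47, 0.105 and 2.94 CPM and LUM at 1.91, 0.166 and 2.63 CPM. Endothelial markers summed to at most 2.03 CPM and blood markers to at most 2.42 CPM. Muscle markers summed to at most 2.26 CPM, in a control, with MYOG and MYH6 at or under 3 counts in every library. The part of these markers in the channel differences was not tested.

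The libraries numbered 2 stood apart from those numbered 1 within line 2. Both were above both libraries numbered 1 for 24 of the 39 expressed channel genes (61.5%, beside 30.6% of all expressed genes) and below for 4 (10.3%, beside 35.1%), which were CACNA2D1, CACNB2, KCNAB3 and KCNF1. In line 1 the numbered 2 libraries were above for 11 (28.2%, beside 20.5%) and below for 6 (15.4%, beside 25.4%). KCNG1, given above, and CACNG6, at 1.68 and 1.84 against 4.62 and 4.52 CPM in line 2, are examples. Reads outside genes made up 26.4% and 31.5% of the line 2 libraries numbered 2 and 24.1% and 24.5% of those numbered 1, and their totals were 68040103 and 60154638 against 54545050 and 52511563 counts. The part of these in the channel levels was not tested.

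Rescue libraries had more HKDC1 than the libraries labelled knockout, but in line 1 this was a rise from control level to far above it. No channel gene was called. Of the 67 tested, 0 were higher (beside 0.00486% of all genes tested) and 0 lower (beside 0.00486%) in rescue against the libraries labelled knockout by edgeR's quasi-likelihood test. DESeq2 called 1 lower. An unadjusted p under 0.05 was found for 5 by edgeR, with no share over all genes at that level to set beside it. HKDC1 itself rose by 3.11 on the log2 scale (SE 0.21, edgeR adjusted p = 0.000383). With each rescue library blocked with the knockout library of its line and number, 0 channel genes and 8 genes in all were called (0.0405% of 19766). The median log2 change was -0.11 over the expressed channel genes and -0.01 over all genes.

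In all 4 pairs of a line and number the rescue library lay below its knockout for KCNF1, KCNK13 and KCNK5 (7.69% of 39, beside 14.1% of all expressed genes) and above it for KCND2 and KCNJ3 (5.13%, beside 11.9%). KCNK13 differed by -1.68, -1.02, -0.56 and -1.15 (line 1 numbers 1 and 2, then line 2; log2 with 0.1 CPM added), so that its rescue levels lay between knockout and control. With the block its log2 change was -1.17 (SE 0.24), at an unadjusted p of 0.00102 and an adjusted p of 0.134 by edgeR over 19766 genes. KCNF1 gave -0.58, -0.53, -0.13 and -0.79 (blocked adjusted p = 0.197 by edgeR), and KCNJ3 gave 0.08, 0.53, 0.95 and 0.80 (adjusted p = 0.236). None of these passed the test.

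Several genes had rescue below knockout in the line 1 pairs and near or above it in the line 2 pairs. KCNK6, a leak pore, gave -1.27 and -1.28 in line 1 and -0.03 and 0.07 in line 2. KCNG1 gave -1.09 and -1.09, then 0.01 and 0.25. CACNG8 gave -0.92 and -1.15, then 0.16 and -0.07. The difference between lines in the rescue change was tested as an interaction, and 0 of 67 channel genes were called in either direction (beside 0.0% of all genes in each), with 6 at an unadjusted p under 0.05. With each rescue library blocked with its knockout library, chosen after seeing the data, 1 of 60 channel genes was called higher (beside 0.501% of 19766 genes) and 0 lower (beside 0.0607%), with 19 at an unadjusted p under 0.05. That gene was KCNK6, with a difference of 1.32 (line 2 less line 1, SE 0.21, edgeR adjusted p = 0.0344). It stood at 6.57, 9.62, 16.2 and 20.6 CPM in the controls, 9.53, 3.90, 11.3 and 4.58 CPM in line 1, and 4.84, 4.76, 8.24 and 8.63 CPM in line 2, so the line 1 rescues were the lowest 2 of their line. For KCNG1 and CACNG8 the blocked adjusted p was 0.125 and 0.177 by edgeR. The counts of 6 and 19 at an unadjusted p have no share over all genes beside them, so they are not a result about channel genes. Without the block the median difference was 0.63 on the log2 scale over the expressed channel genes and 0.02 over all genes. A p that misses the threshold does not show that the lines responded alike.

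**Figure D4:**
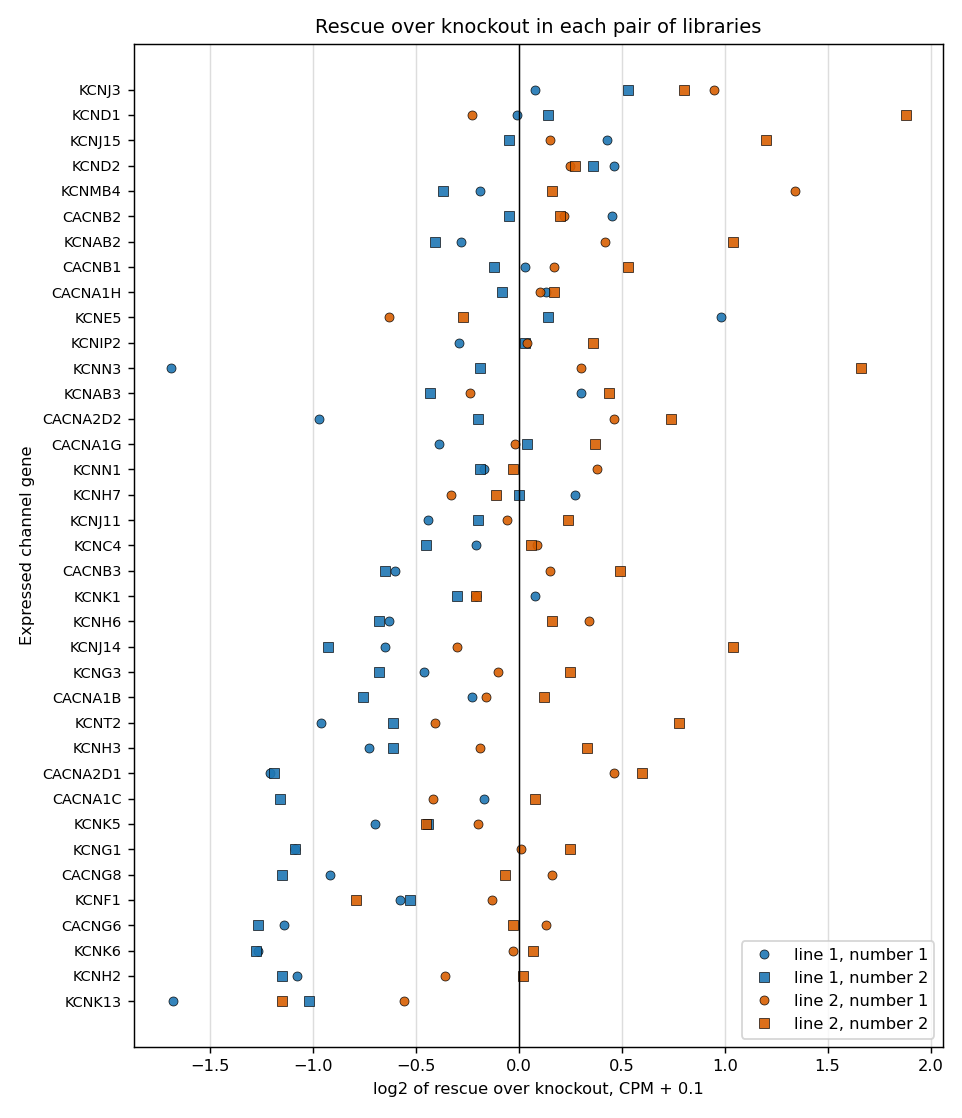
Log2 of rescue over knockout, with 0.1 CPM added, for the expressed channel genes reported here in each of the 4 pairs of libraries (blue for line 1, orange for line 2, circles for number 1, squares for number 2). KCNK13 lies left of 0 in all 4 pairs and KCNJ3 right of 0, while KCNK6 is at -1.27 and -1.28 in line 1 and near 0 in line 2.

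The libraries labelled knockout alone, averaged over the lines on the log2 scale and with HKDC1 at control level in line 1, had 3 expressed channel genes above the controls (7.69%, beside 6.75% of all genes tested) and 9 below (23.1%, beside 9.36%). Over the 67 tested, the like set for all genes tested, 4 were above (5.97%) and 12 below (17.9%). KCNK13 (4.22, SE 0.28, edgeR adjusted p = 1.14e-05) and KCNE5 (1.12, adjusted p = 0.00715) were among the 3 above. CACNA2D1 (adjusted p = 1.79e-07), CACNA1H (-1.04, adjusted p = 0.00677), CACNB2 (-1.03, adjusted p = 0.000489), CACNB3 (-0.85, adjusted p = 0.0286) and KCNMB4 (-1.44, adjusted p = 0.0256) were among those below. CACNB3 and KCNMB4 were lost against controls 3 and 4 alone (adjusted p = 0.0636 and 0.101), and also without single libraries (adjusted p up to 0.11). In a fit of 3 groups that pools the lines, CACNB3, CACNG6, KCND2, KCNH7 and KCNMB4 were no longer called, with adjusted p by edgeR from 0.153 to 0.873. KCND2 (adjusted p = 0.000141), KCNH7 (adjusted p = 0.0039) and CACNG6 (adjusted p = 0.00303) were called here too, while line 2 alone was not called for these genes. KCNK1 was called lower at an adjusted p of 0.0481 although line 2 held more of it than the controls, because the average is of logarithms. That call turned to 2.07 (adjusted p = 0.542) in a fit of 3 groups and was lost against controls 3 and 4 alone and without any of 8 libraries (adjusted p up to 0.161).

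Of the 39 expressed channel genes 12 were called in no comparison of the fit without a block. Among them, KCNF1 averaged 8.91 CPM in the controls, 8.89 in line 1 and 6.03 in line 2. KCNK6 averaged 13.2, 7.32 and 6.62 CPM, with controls from 6.57 to 20.6 CPM (log2 fold change -0.99 in line 1, edgeR adjusted p = 0.0592, and -0.98 in line 2, adjusted p = 0.0787). KCNN1, a small-conductance calcium-activated pore, averaged 4.33, 4.62 and 4.49 CPM, and KCNH6, another ERG-type pore, 4.14, 4.24 and 4.79 CPM. CACNA1G, another T-type pore, averaged 2.76, 1.23 and 2.69 CPM (line 1 -1.16, adjusted p = 0.0735), and KCNT2, a sodium-activated pore, 3.45, 5.95 and 2.76 CPM. KCNAB2, KCNAB3, KCND1, CACNB1, CACNA2D2 and KCNN3 were the remaining 6.

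Other routes for potassium and calcium and their partners were taken from a list of 109 genes (store-operated entry, release channels, pumps, TRP channels and others). Of these 108 were found, 79 tested and 63 expressed. ORAI1, a listed gene of store-operated entry, was the one not found, so its level is not known here. Line 1 had 8 of the 79 higher (10.1%, beside 11.3% of all genes tested) and 25 lower (31.6%, beside 15.7%). In line 2, 4 were higher (5.06%, beside 7.7%) and 13 lower (16.5%, beside 9.61%). Line 2 exceeded line 1 for 22 (27.8%, beside 14.6%) and was below it for 12 (15.2%, beside 12.3%). Knockout exceeded the controls for 4 (5.06%, beside 6.75%) and was below them for 15 (19.0%, beside 9.36%), and rescue and knockout differed for 0. SARAF, which limits store-operated calcium entry, averaged 290 CPM in the controls, 74.3 in line 1 and 164 in line 2 (-1.96, edgeR adjusted p = 8.88e-07, and -0.80, adjusted p = 0.000373). ITPR1, a calcium release channel of the endoplasmic reticulum, averaged 26.3, 60.9 and 32.0 CPM and rose in line 1 (1.21, adjusted p = 0.000613). STIM1, the calcium sensor of that store, averaged 77.9, 123 and 65.8 CPM and also rose in line 1 (0.67, adjusted p = 0.00184). Its relative STIM2 averaged 50.6, 31.5 and 39.3 CPM and fell in line 1 (-0.69, edgeR adjusted p = 0.000622) and line 2 (-0.35, adjusted p = 0.0319). ORAI2 averaged 33.0, 22.2 and 46.6 CPM and was called lower in line 1 (-0.63, edgeR adjusted p = 0.046). The line 1 knockouts, at 28.2 and 29.3 CPM, lay within the controls (22.5, 26.2, 36.1 and 47.3 CPM). Only the line 1 rescues, at 15.6 and 15.8 CPM, lay below them.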

How the data were processed

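RNA of 12 libraries was measured by stranded mRNA sequencing. The authors deposited raw counts of reads per gene, made with STAR 2.6.0b on GRCh37 per the submitters' processing notes, and the filters were not given in the sources used here. The stranded column used summed to 19.8 to 21.1 times the opposite one, and the lines of unassigned reads (23.2% to 31.5%) were left out. Symbols came from a reference list and GENCODE 29, and a channel gene also had to be coding in RefSeq. The members and gene lists were chosen with earlier results of these data known.

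Counts were fitted in 5 groups (control, and knockout and rescue of each line) with edgeR 4.0.16 in R 4.3.3 after filterByExpr and TMM, by the quasi-likelihood test with Benjamini-Hochberg adjustment over 20559 genes in each of 6 comparisons. The biological coefficient of variation was 25.8%, and 14.0% with line and number as a block. The block takes libraries of the same line and number as pairs, which the labels do not state. Deviations of same-numbered knockout and rescue libraries correlated at 0.24 in line 1 and 0.46 in line 2 over genes. Named genes are the expressed members called in any comparison, with values in every library for the 5 of smallest adjusted p each and for those separating the control pairs. Neighbouring genes were taken in GENCODE 29 order. Alternatives were DESeq2 1.42.0, RLE scaling, no filter, unstranded counts, groups by the genotype field, 3 groups, knockout libraries only, each control pair, the block, other levels of expression, each library left out and, chosen after seeing the data, leaving out the pair of line 2 libraries numbered 2 and the block for the difference between lines. Count intervals are 95% exact. Counts cover all members, while some members and partner genes are not reported here by name.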

Additional observations from a re-analysis of the deposited data

Results flagged for a closer look

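KCNAB3, an accessory subunit of voltage-gated potassium channels, stood at 1.47 CPM in control 3 and at 1.04 to 1.10 CPM in the other 3 controls. Control 3 was set apart by a gap of 0.862 of the range of the group, above the 95% critical value of Dixon's test for 4 samples. It was the single such case among the 39 expressed channel genes in the controls, the only group of 4 libraries by the titles, and chance marks about 1 group in 20.

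KCNK6, a leak pore, differed between the lines in its rescue change when rescue and knockout libraries were blocked by line and number: the difference, line 2 less line 1, was 1.32 on the log2 scale (SE 0.21, edgeR adjusted p = 0.0344), with line 1 pairs at -1.27 and -1.28 and line 2 pairs at -0.03 and 0.07. The block was chosen after seeing the data, and without it the gene was not called.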

How the results depend on the processing

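Of 66 calls of named genes in the 6 comparisons, 33 held under every alternative run (19 to 21 each) and 33 were lost in 1 or more. Line 1 against control kept 14 of 18, line 2 against control 5 of 13, line 2 against line 1 9 of 23, and knockout against control 5 of 12. Calls that turned direction were CACNA1C in line 1 against controls 1 and 2 only (1.19) and KCNK1 in knockout against control with 3 groups (2.07). Among the 67 channel genes tested, the 13 higher in line 2 became 7 with knockout libraries only and 4 without the pair numbered 2, and the 7 lower became 12 with no filter. The 23 higher in line 2 than line 1 became 8 with knockout libraries only, 13 without the pair numbered 2, and 13 to 26 with 1 library left out, while the 4 lower became 2 to 4 with 1 left out, 6 with no filter and 6 with the number as a block beside the state. The 4 higher in knockout than control became 11 with DESeq2, 10 with no filter, 8 against controls 1 and 2, 6 against controls 3 and 4, 2 with 3 groups and 3 to 6 with 1 library left out, and the 12 lower became 5 with 3 groups and 18 with no filter. DESeq2 and no filter each called 1 lower in rescue, and in the difference between lines no filter called 2 and the replicate block of line and number 1, both higher. A level of 2 CPM left 25 expressed genes in place of 39. The cause of these shifts was not tested.

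With the replicate block of line and number, rescue against knockout called 0 channel genes higher and 0 lower, as without it, and pairing changed no call of a channel gene there. The fit by the genotype field also called 0 in rescue against knockout, but it cannot test the rescue. In each line that field follows the library number, so each of its states holds a knockout and a rescue library by title. HKDC1 separated the states by title, at 49.3 to 152 CPM in knockout and 509 to 1540 CPM in rescue libraries. Genes near absence limit what depth can show: 3 counts were worth 0.0408 to 0.0848 CPM.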
